A study of Drosophila melanogaster and Drosophila arizonae and Drosophila mojavensis with 18 samples.

Results

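Transcripts of alcohol and aldehyde metabolism were followed in larvae of *Drosophila mojavensis*, a cactus-feeding fly, and *D. melanogaster*. The members are the paralogs *Adh1* (FBgn0012566) and *Adh2* (FBgn0012567) of *D. mojavensis* and the *D. melanogaster* genes *Adh*, *Adhr*, *Aldh*, *Fdh* and *AcCoAS*, chosen by name. They are 7 of the 43479 genes in the tables of the 3 species sequenced, 2 of 15180 in *D. mojavensis* and 5 of 17239 in *D. melanogaster*. The table of *D. arizonae* is outside the part described here, although the study pairs some of its identifiers with gene names, those of *Adh1* and *Adh2* among them. All 7 members passed the filter on low values.

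Whole larvae of the third instar, from isofemale strains and 30 to a vial, fed for 24 h on 1 of 3 diets before RNA was taken for sequencing. A batch of the HPLS diet (high protein, low sugar) was made with 8 g sucrose and 32 g yeast. EPS (equal protein and sugar) had 20 g sucrose and 20 g yeast, and LPHS (low protein, high sugar) had 32 g sucrose and 8 g yeast. Every recipe lists 4.5 ml of ethanol, the substrate of alcohol dehydrogenase. Since yeast was replaced by sucrose, effects of the 2 cannot be told apart. Each diet has 2 libraries per species, S2 and S1, which gives 6 libraries per species. Both isofemale strains of a species were used, but whether the library number is the strain is not given in the sources used here, so number, strain and library batch cannot be told apart. The p-values measure only the spread between these libraries.

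Alcohol dehydrogenase oxidises ethanol to acetaldehyde, and in *Drosophila* larvae, which live in fermenting food, it both clears ethanol and opens the way to its use as fuel. Aldehyde dehydrogenase turns acetaldehyde into acetate, and acetyl-CoA synthetase activates acetate to acetyl-CoA, from which fatty acids are made. In larvae of *D. melanogaster*, *Adh* is expressed chiefly in the fat body and the gut. Flies of the *D. mojavensis* group carry a duplicated *Adh*, of which *Adh1* is known as the larval and ovarian copy and *Adh2* as the copy of late larvae and adults.

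The paralogs resemble each other, so the bases that separate them matter for how far fragments can be assigned to one or the other. The primers that the study designed for each paralog are shown as examples of such bases. Because they were made to tell the paralogs apart, they do not measure how alike the whole transcripts are. Capitals mark the bases at which the primers of a pair differ.
Adh1 forward: TCtgCagaAAatcttTgacCagctT
Adh2 forward: ATtgAagaCGatcttCgacAagctG
Adh1 reverse: aTttgtggaGcagagGtgtcttTg
Adh2 reverse: aCttgtggaCcagagTtgtcttCg
The forward primers share 17 of 25 bases, and the reverse primers share 20 of 24. The deposited values were whole fragments for *Adh1* in 5 of 5 libraries in which this could be judged, but how read pairs that match both paralogs were counted is not given in the sources used here. The split between the paralogs is therefore uncertain to that extent.

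The *D. mojavensis* libraries held 6819502 to 9910492 fragments in genes and the *D. melanogaster* libraries 13219689 to 32807690. In the *D. melanogaster* libraries, 11 of 14 markers of larval fat body, salivary glue and midgut were above 0 in every library. The other 3, the larval serum proteins *Lsp1beta*, *Lsp1gamma* and *Lsp2* of the fat body, were listed at 0 in the HPLS S2 library and were between 99280 and 559816 elsewhere. Many of the fold changes and calls that use this library are therefore also given without it. The ratios within a library and the likeness of profiles are given with it only. The summed normalized count of 5 glue genes was 69307 to 233804 in S2 and 3222 to 35222 in S1. The summed count of 5 fat body genes was 564989 to 1.54448e+06 in S2 and 1.11187e+06 to 1.39988e+06 in S1. The lowest of these, 564989, is that of HPLS S2. The summed count of 4 midgut proteases was 140935 to 166784 in S2 and 139016 to 172292 in S1. In whole larvae, fewer cells of a type and less RNA per cell cannot be told apart.

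The counts assigned to either *D. mojavensis* paralog were lower on LPHS than on HPLS, and EPS lay between. They carry the uncertainty of the split between the paralogs. The study also measured both paralogs by RT-qPCR with the primers above. That result bears on whether *Adh1* itself changed, and it is not reported here. A normalized count is the deposited value after scaling between libraries by the TMM method. *Adh2* had normalized counts of 59024 (S2) and 42796 (S1) on HPLS, 19900 and 36920 on EPS, and 5619 and 11079 on LPHS. *Adh1* had 9220 (S2) and 11587 (S1) on HPLS, 6597 and 4531 on EPS, and 3507 and 2191 on LPHS. For either paralog no value on one diet overlapped with those of another diet, so every library stood in the order of the diets. Of all genes tested, 20.2% were likewise lower on LPHS than on HPLS with no overlap, 13% lower on EPS than on HPLS and 12.9% lower on LPHS than on EPS.

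**Figure D1:**
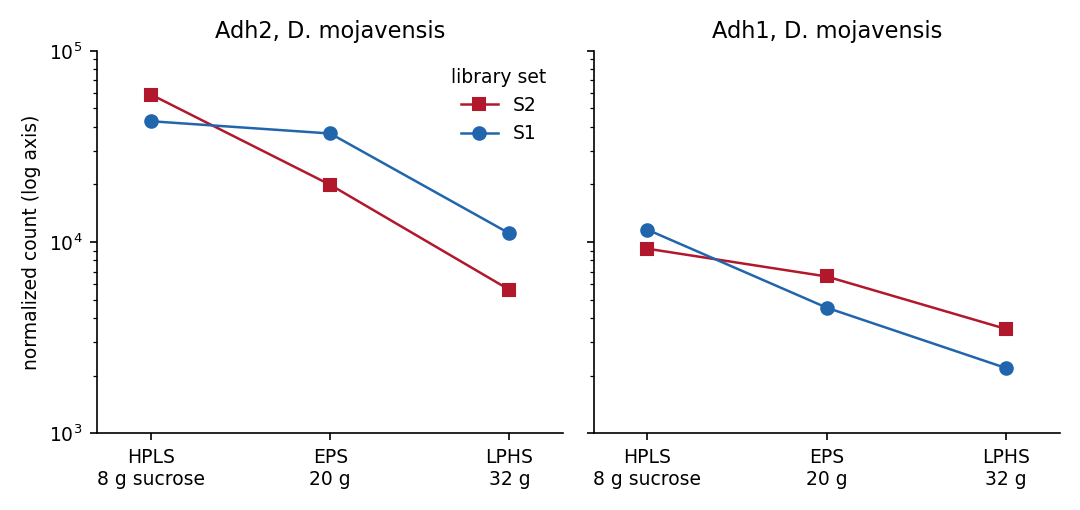
Normalized counts (log axis) of *Adh2* and *Adh1* in the 6 *D. mojavensis* libraries, by diet from low to high sucrose. Each point is 1 library, squares with red lines are S2 and circles with blue lines are S1. On LPHS *Adh2* lies at 5619 and 11079 and *Adh1* at 2191 and 3507, below every point of HPLS.

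The log2 fold change in LPHS-HPLS was -1.90 for *Adh1* (95% interval -2.62 to -1.18) and -2.67 for *Adh2* (-3.68 to -1.66). Only 41 and 23 of the 9724 genes tested had a lower fold change than these, while the median of all genes was 0.00. By limma with diet alone in the model the adjusted p was 0.170 for each, and 0 of 2 paralogs was called at an adjusted p of at most 0.05, although both had an unadjusted p under 0.05, as did 10.3% of all genes. In that fit 0.0206% of all genes were called. With the library number as a block, both paralogs fell, with adjusted p of 0.00757 for *Adh1* and 0.00720 for *Adh2*, in a fit that called 5.59% of all genes and 3% as lower. The quasi-likelihood test of edgeR called neither without the block (adjusted p = 0.187 for each), where it called 0% of all genes, and both with it, beside 5.62% of all genes. DESeq2 called both, beside 2.02% of all genes.

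Neither paralog was called in the steps between neighbouring diets. In EPS-HPLS the log2 fold change was -0.92 for *Adh1* and -0.89 for *Adh2*. The adjusted p was 1.00 for both without the block, and 0.285 for *Adh1* and 0.496 for *Adh2* with it. In LPHS-EPS the fold change was -0.98 for *Adh1* and -1.78 for *Adh2*, with adjusted p of 0.423 and 0.316 in that order with the block. Without the block, *Adh1* had an unadjusted p under 0.05 in both steps and *Adh2* in LPHS-EPS, as did 2.23% of all genes in EPS-HPLS and 2.19% in LPHS-EPS. The quasi-likelihood test of edgeR and DESeq2 called neither paralog in a step. Limma without the block called 0% of all genes in either step, and with it 0.185% in EPS-HPLS and 0% in LPHS-EPS. Over the 3 diets taken as a trend on grams of sucrose, the adjusted p was 0.0579 for *Adh1* and 0.0725 for *Adh2* without the block, where 0.134% of all genes were called. With the block it was 0.00305 and 0.00480, and both paralogs fell, in a fit that called 9.23% of all genes.

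The share of *Adh2* in the fragments of the pair ranged from 61.6 to 89.1%. Fragments of *Adh2* outnumbered those of *Adh1* in 6 of 6 libraries. *Adh2* made up 86.5% (S2) and 78.7% (S1) of the fragments of the pair on HPLS, 75.1% and 89.1% on EPS, and 61.6% and 83.5% on LPHS. The lowest share came from 3282 fragments of *Adh1* and 5258 of *Adh2* in LPHS S2, with a 95% Wilson interval of 60.5 to 62.6%, and the highest from 5334 and 43460 fragments in EPS S1, with an interval of 88.8 to 89.3%. These intervals cover counting error only. No gene length was available for *D. mojavensis*, so the share compares fragments and not transcripts, and only its difference between libraries is read.

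The log2 ratio of *Adh1* to *Adh2* fragments was -2.68 (S2) and -1.88 (S1) on HPLS, -1.59 and -3.03 on EPS, and -0.68 and -2.34 on LPHS. The values of every diet overlapped with those of the other diets. The mean ratio was higher by 0.77 on LPHS than on HPLS, with an exact two-sided permutation p of 0.667, where 0.333 is the smallest that 2 against 2 libraries can give. The sign differed by library number, with a difference of 1.998 in S2 and of -0.45 in S1. The slope over the 3 diets gave 0.77 from 8 to 32 g of sucrose (exact permutation p = 0.444, smallest possible 0.0222). Without the LPHS S2 library the LPHS-HPLS difference was -0.06, so its direction rests on that library. A shift of the balance with diet was thus not shown, although the sum of both paralogs, 9126 (S2) and 13270 (S1) normalized counts on LPHS, lay below the 68245 (S2) and 54383 (S1) on HPLS.

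**Figure D2:**
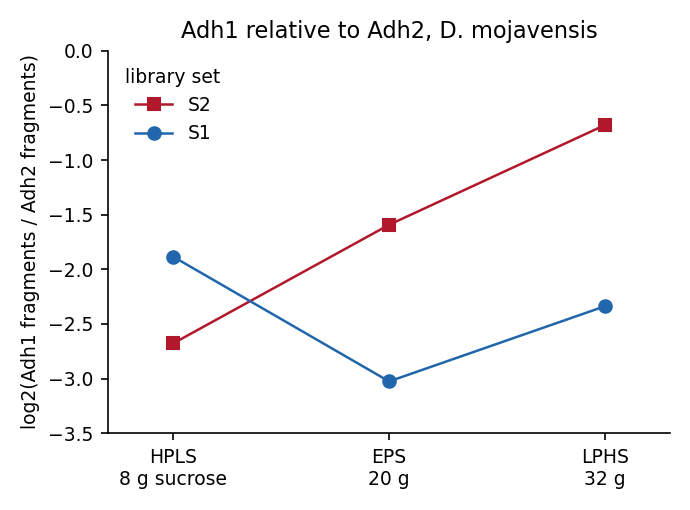
Log2 ratio of *Adh1* to *Adh2* fragments in each *D. mojavensis* library, by diet from low to high sucrose. Squares with a red line are S2 and circles with a blue line are S1, and lines join libraries of the same number. The S2 values are higher on LPHS (-0.68) than on HPLS (-2.68), while the S1 values are -2.34 on LPHS and -1.88 on HPLS.

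Within each diet the library with more *Adh1* had less *Adh2*. On EPS and LPHS the S2 library had more *Adh1* and less *Adh2* than S1, and on HPLS it had less *Adh1* and more *Adh2*. Over the 3 diets the S2-S1 difference was 0.30 for *Adh1* (adjusted p = 0.323, limma) and -0.47 for *Adh2* (adjusted p = 0.264), so neither was called where 13.2% of all genes were. Unadjusted, 0 of 2 had a p under 0.05, where 31.2% of all genes did, and edgeR and DESeq2 called neither. Without either HPLS library, which leaves EPS and LPHS to give the difference, both were called, in fits that called 21.8% of all genes without HPLS S1 and 22.6% without HPLS S2. Without HPLS S1 the difference was 0.61 for *Adh1* (adjusted p = 0.00561) and -0.94 for *Adh2* (adjusted p = 0.00196), and without HPLS S2 it was 0.61 (adjusted p = 0.00414) and -0.94 (adjusted p = 0.00118). GI11539, the ortholog of the fat body gene *Fbp1*, was at 488 (S2) and 2.69 (S1) on LPHS, at 267 and 16.1 on EPS and at 1487 and 533 on HPLS. It was higher in S2 over the diets, by 4.16 on the log2 scale (adjusted p = 0.0247), and its part in the results of the paralogs was not tested.

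Other genes of aldehyde oxidation and NADPH supply are given in *D. mojavensis* for 3 of the listed genes. The study chose these on the same samples, so they are not independent evidence of a direction. *Xdh*, xanthine dehydrogenase, had 47.0 (S2) and 94.2 (S1) normalized counts on LPHS, against 254 and 278 on HPLS. GI10152, the ortholog of the aldehyde oxidase *AOX2*, had 22.4 and 44.0 on LPHS, against 75.3 and 141 on HPLS. GI11069, the ortholog of *Pgd*, encodes 6-phosphogluconate dehydrogenase, which forms NADPH. It had 6264 (S2) and 4840 (S1) on LPHS, against 2348 and 1618 on HPLS. None of the 3 overlapped between these diets, as for 20.2% of all genes in the lower direction and 19% in the higher. Limma called 0 of 3 without the block, where all 3 had an unadjusted p under 0.05, as did 10.3% of all genes. With the block, in the fit that called 5.59% of all genes, *Xdh* (log2 fold change -1.98, adjusted p = 0.00938) and GI10152 (-1.68, 0.00580) fell, and GI11069 (1.498, 0.00255) rose.

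In *D. melanogaster* (Release 6 assembly) *Adh* lies on chromosome arm 2L from 14615552 to 14618902 on the plus strand, with *Adhr* annotated over the same span. *Adhr*, the *Adh*-related gene, lies downstream of *Adh* and is read from the same transcript. All 2116 exon bases of *Adhr* also belong to *Adh* transcripts, so the counts of the pair are uncertain, and only 1 of 6 *Adhr* values was a whole number of fragments. Both lie within *osp*. *Aldh* lies on 2L from 9387389 to 9391567 (plus strand) and overlaps *Shawl*, and how overlapping genes were counted is not given in the sources used here. *Fdh* lies on 3R from 10870906 to 10872381 and *AcCoAS* on 3L from 21270722 to 21280243, both on the minus strand, and neither overlaps another gene.

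Per kilobase of exon, the normalized count over the 6 libraries was 32477 ± 16427 for *Adh*, 10303 ± 4729 for *Aldh*, 3274 ± 882 for *AcCoAS*, 2820 ± 404 for *Fdh* and 754 ± 363 for *Adhr* (mean ± SD, n = 6). *AcCoAS* and *Fdh* did not differ beyond their spread by this length. The place of *Adhr* is uncertain because of its shared exons, which also count in the length of *Adh*. Per kilobase of coding sequence, *AcCoAS* was at 5871 ± 1582 and *Fdh* at 3316 ± 475. By that length *Adh* was at 95316 ± 48212 and *Aldh* at 13672 ± 6275, so the distances between genes depend on the length used. *Adh* alone took 0.188 to 0.614% of all fragments in genes.

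In *D. melanogaster* 0 of 5 members were called between diets after adjustment over all genes. *Adh* had normalized counts of 49543 (S2) and 95573 (S1) on HPLS, 35412 and 116813 on EPS, and 35906 and 105967 on LPHS. S1 was far above S2 on each diet, and the diets overlapped. *Adhr* had 1046 (S2) and 2036 (S1) on HPLS, 901 and 2372 on EPS, and 780 and 2437 on LPHS, again with S1 above S2 throughout.

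*Aldh*, which oxidises acetaldehyde to acetate, had normalized counts of 9634 (S2) and 21877 (S1) on HPLS, 11697 and 32072 on EPS, and 19881 and 32806 on LPHS. Within either library number the value on LPHS was the highest of the diets, but S1 on HPLS lay above S2 on LPHS. *AcCoAS*, which makes acetyl-CoA from acetate, had 9797 (S2) and 8374 (S1) on HPLS, 9991 and 12545 on EPS, and 17267 and 12830 on LPHS. It was the one member whose LPHS and HPLS values did not overlap, and 12.4% of all genes were likewise higher on LPHS with no overlap. *Fdh*, a glutathione-dependent formaldehyde dehydrogenase of the class III alcohol dehydrogenases, had 4525 (S2) and 3125 (S1) on HPLS, 3869 and 3309 on EPS, and 4230 and 3568 on LPHS. Its S2 values were the higher ones on each diet.

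**Figure D3:**
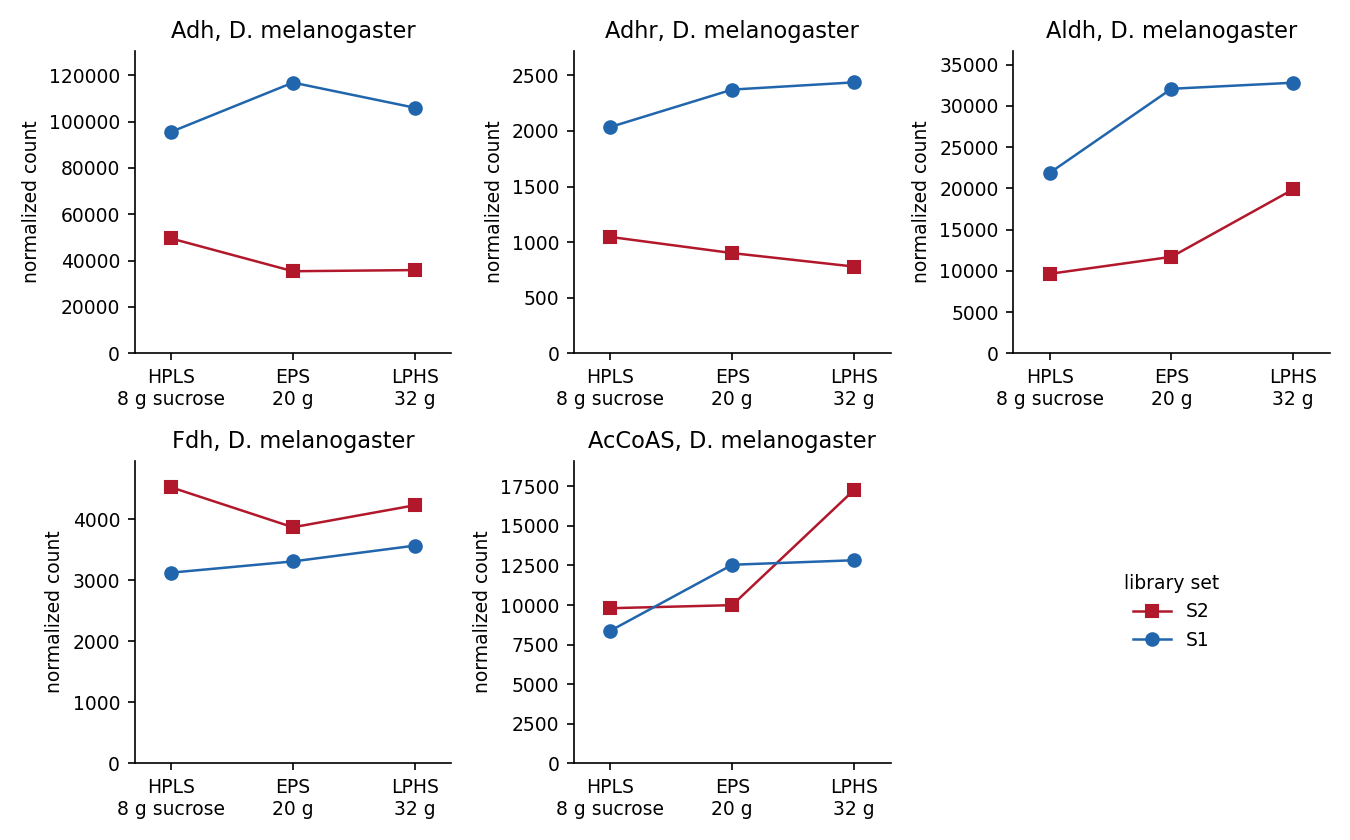
Normalized counts of the 5 *D. melanogaster* members by diet from low to high sucrose, with each axis starting at 0. Each point is 1 library, squares with red lines are S2 and circles with blue lines are S1. S2 lies below S1 on every diet for *Adh*, *Adhr* and *Aldh* and above it for *Fdh*, while *AcCoAS* is highest on LPHS S2 at 17267.

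Limma called 0 of 5 members in LPHS-HPLS without the block and 0 of 5 with it, where 0% of all genes were called in either fit. The quasi-likelihood test of edgeR and DESeq2 called 0 of 5 as well, with 0.114% of all genes called by DESeq2. At an unadjusted p under 0.05 there was 1 member without the block, *AcCoAS*, and 2 with it, *AcCoAS* and *Aldh*, against 1.48% of all genes without the block and 7.64% with it. The log2 fold change of *AcCoAS* was 0.72 (95% interval 0.06 to 1.38, adjusted p = 1.00, and 0.554 with the block). That of *Aldh* was 0.81 (-0.79 to 2.42, adjusted p = 1.00), with an interval of 0.25 to 1.38 and an adjusted p of 0.482 with the block. Without the HPLS S2 library the *Aldh* fold change was 0.21 and that of *AcCoAS* 0.82. The unadjusted p is not read there, because HPLS S1 is then alone on its diet. The fold change was -0.16 for *Adh*, -0.08 for *Adhr* and 0.05 for *Fdh*, and -0.64, -0.57 and 0.30 in that order without HPLS S2. The intervals ran from -2.18 to 1.86 for *Adh*, -1.89 to 1.73 for *Adhr* and -0.58 to 0.68 for *Fdh*. That of *Adh* holds the -1.90 of *D. mojavensis* *Adh1* but not the -2.67 of *Adh2*. With the block the interval of *Adh* was -0.84 to 0.52, which holds neither value. The difference between the species was not tested. The median over the 5 members was 0.05, and that over all genes 0.00.

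The trend on grams of sucrose and the steps EPS-HPLS and LPHS-EPS called 0 of 5 members too, by limma with and without the block, by edgeR and by DESeq2, and by limma without the HPLS S2 library. The trend called 0% of all genes without the block and 0.0811% with it, and the steps 0% in each fit. In the trend the adjusted p with the block was 0.227 for *Aldh* and 0.287 for *AcCoAS*. Both had an unadjusted p under 0.05 in that fit, as did 10.5% of all genes. Without the block *AcCoAS* alone had one, beside 2.65% of all genes. In the steps 0 of 5 members had an unadjusted p under 0.05 in either fit. Of all genes, 0.365% had one in EPS-HPLS and 0.195% in LPHS-EPS without the block, and 2.55% and 1.98% with it.

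Between the library numbers 3 members differed. *Adh*, *Adhr* and *Aldh* were lower in S2 than in S1 over the 3 diets, by -1.41 (95% interval -1.97 to -0.85, adjusted p = 0.0177, limma), -1.33 (-1.72 to -0.94, adjusted p = 0.00900) and -1.12 (-1.58 to -0.66, adjusted p = 0.0193) on the log2 scale. These 3 of 5 members compare with 15.8% of all genes called and 8.43% called as lower, and their libraries did not overlap between the numbers, as for 21.2% of all genes in the lower direction. The tools edgeR and DESeq2 called the same number, beside 16.5% and 17.2% of all genes. *Fdh* was at 0.33 (adjusted p = 0.118) and *AcCoAS* at 0.11 (adjusted p = 0.693), and neither was called, although the *Fdh* libraries did not overlap, as for 22.5% of all genes in the higher direction. Without HPLS S2, *Fdh* was at 0.23 and *AcCoAS* at 0.04. The *Aldh* call was lost without HPLS S1 (-1.09, adjusted p = 0.0756), HPLS S2 (-1.09, 0.0513), EPS S1 (-0.95, 0.0567) or EPS S2 (-0.97, 0.0526). Without HPLS S2, where 6.86% of all genes were called, *Adh* was at -1.65 (adjusted p = 0.0152) and *Adhr* at -1.52 (adjusted p = 0.000466). On the values as deposited, which move the median of all genes by 0.52 in S2-S1, *Fdh* (0.84, adjusted p = 0.00562) and *AcCoAS* (0.62, adjusted p = 0.0322) were called as higher. That fit called 6851 of 12324 genes. Relative to the shift of the median, *Fdh* and *AcCoAS* differ little from the values above.

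Markers of larval organs differed between the same libraries, in fits that called 15.8% of all genes and, without HPLS S2, 6.86%. Of the 5 glue genes, which salivary glands express late in larval life, 4 rose in S2, by 3.36 to 4.30 on the log2 scale, among them *Sgs3* (3.97, adjusted p = 0.0186). The other, *Sgs5*, was at 3.15 (adjusted p = 0.0535). Without HPLS S2 all 5 were called as higher, with a median of 3.72. Of the 5 fat body markers 2 were positive, with a median of -4.98 that rests on the 3 listed at 0 in HPLS S2, and *Lsp1alpha* was called (0.92, adjusted p = 0.0481). Without that library all 5 were positive, with a median of 0.96, *Lsp1alpha* was not called (0.96, adjusted p = 0.262) and *Fbp1* was (4.33, adjusted p = 0.0489). Of the 4 midgut markers 2 were positive, with a median of -0.003 and a highest value of 0.04, and the median was -0.07 without HPLS S2. Only *Jon99Ci* was called, as lower (-1.52, adjusted p = 0.00575, and -1.72 without HPLS S2). Over the 3 diets the summed glue counts were higher in S2 with no overlap, as were 22.5% of all genes. The sums of fat body and of midgut overlapped between S2 and S1. The fat body overlap rests on HPLS S2 (564989), since the S2 sums on EPS (1.54448e+06) and LPHS (1.48376e+06) lay above every S1 sum. The part of these organs or of larval age in the S2-S1 differences of *Adh*, *Adhr* and *Aldh* was not tested.

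**Figure D4:**
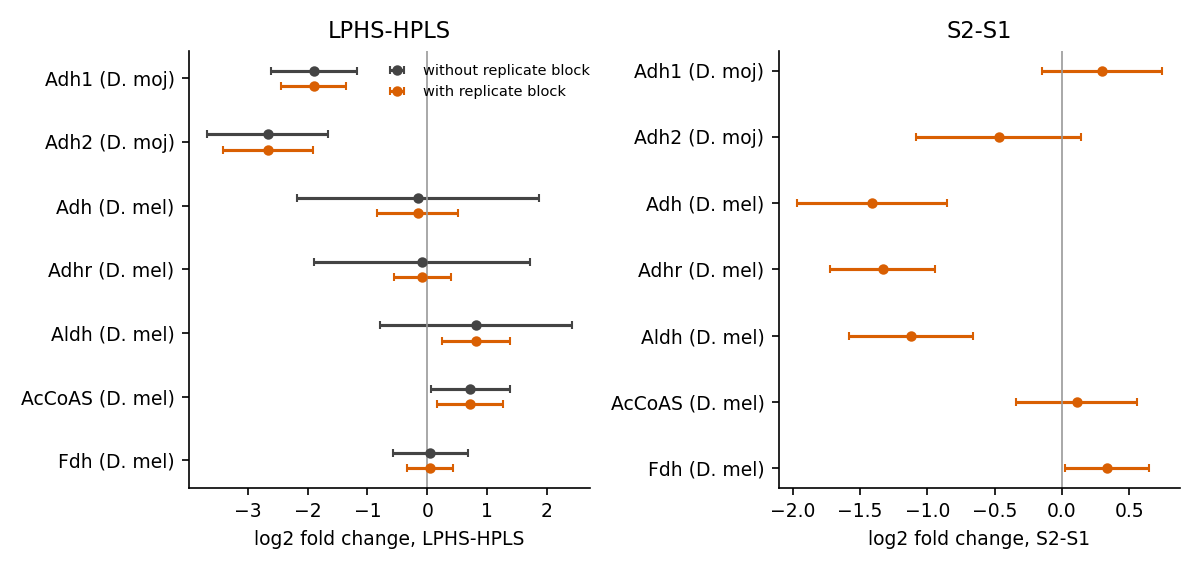
Log2 fold changes of the 7 members with 95% intervals from limma, in LPHS-HPLS (left) and in S2-S1 (right). Grey is the fit with diet alone and orange the fit with the library number in the model. In LPHS-HPLS the 2 *D. mojavensis* paralogs lie at -1.90 and -2.67, and in S2-S1 *Adh*, *Adhr* and *Aldh* lie at -1.41, -1.33 and -1.12.

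Ratios within a library do not depend on the scaling between libraries. The log2 ratio of *Adhr* to *Adh* fragments stayed between -5.62 and -5.30 in the 6 libraries, beside the shared exons of the pair. The log2 ratio of *Aldh* to *Adh* fragments was -2.36 (S2) and -2.13 (S1) on HPLS, -1.60 and -1.86 on EPS, and -0.85 and -1.69 on LPHS. Both LPHS values lay above both HPLS values, as did both EPS values. How many other pairs of genes do so was not counted. That of *AcCoAS* to *Aldh* was 0.02 (S2) and -1.39 (S1) on HPLS, -0.23 and -1.35 on EPS, and -0.20 and -1.35 on LPHS, a split by library number. That of *Fdh* to *Adh* was -3.45 (S2) and -4.93 (S1) on HPLS, -3.19 and -5.14 on EPS, and -3.09 and -4.89 on LPHS, with the same split. These 4 ratios were described and not tested.

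Of a list of 25 other *D. melanogaster* genes of alcohol, aldehyde and acetyl-CoA use and NADPH supply, 23 were matched and 22 passed the filter. The aldehyde oxidase *AOX4* did not. In LPHS-HPLS limma called 0 of 22 without and with the block, as did edgeR and DESeq2, with 0% of all genes called by limma. At an unadjusted p under 0.05 there were 1 higher and 2 lower without the block, and 6 and 6 with it, against 1.48% and 7.64% of all genes. DESeq2 had 7 such genes, against 1.92% of all genes. The edgeR test had 2 without the block and 12 with it, against 1.51% and 7.87% of all genes. The median fold change of the 22 was 0.04, and it was 0.02 without HPLS S2.

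The 4 genes listed as other alcohol-using enzymes had negative fold changes in LPHS-HPLS, with a median of -0.80, and of -0.59 without HPLS S2. The list holds *Fbp2*, whose use of alcohol was not examined. *Sodh2* had 612 (S2) and 1469 (S1) normalized counts on LPHS, against 1120 and 1181 on HPLS, so it rose within S1. It was at -0.28, and at -0.33 without HPLS S2. *Sodh1*, a sorbitol dehydrogenase, had 885 (S2) and 669 (S1) normalized counts on LPHS, against 1705 and 1382 on HPLS (-0.995, adjusted p = 1.00, and 0.201 with the block). *Fbp2*, a fat body protein related to alcohol dehydrogenases, had 24178 and 13001 on LPHS, against 143445 and 36744 on HPLS (-2.03, adjusted p = 0.347 with the block). *Cat* encodes catalase, which can oxidise ethanol with peroxide, and was at -0.60. Without HPLS S2, *Sodh1* was at -0.86, *Fbp2* at -1.06 and *Cat* at -0.30.

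The 9 aldehyde-using enzymes had a median of -0.04 and 4 positive values, and a median of -0.03 and 4 positive values without HPLS S2. The aldehyde dehydrogenase gene *CG31075* had 2552 (S2) and 7147 (S1) on LPHS, against 8577 and 13763 on HPLS (-1.35, adjusted p = 0.347 with the block), and *CG8665*, a formyltetrahydrofolate dehydrogenase, was at -1.58. *CG4390*, S-formylglutathione hydrolase, which acts after *Fdh* on formaldehyde, was at 0.03. Without HPLS S2, *CG31075* was at -1.70, *CG8665* at -0.67 and *CG4390* at -0.10.

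The 3 genes of acetyl-CoA use had a median of 1.07, which rests on HPLS S2. Without it the median was 0.32 and the fatty acid synthase gene *FASN2* was at -0.41, against 0.22 with it. *ACC*, acetyl-CoA carboxylase, had 13088 (S2) and 10358 (S1) on LPHS, against 1960 and 7773 on HPLS (1.58, adjusted p = 0.597 with the block), and *ATPCL*, ATP citrate lyase, was at 1.07. Without HPLS S2, *ACC* was at 0.57 and *ATPCL* at 0.32. The 5 NADPH and redox genes were positive with and without HPLS S2, with a median of 0.96 and, without it, of 0.55. The lowest, *Idh*, was at 0.02. It had 13049 (S2) and 7944 (S1) on LPHS, against 11078 and 9105 on HPLS, so it fell within S1. *Pgd*, 6-phosphogluconate dehydrogenase, had 7366 (S2) and 12737 (S1) on LPHS, against 2709 and 6555 on HPLS (1.2005, adjusted p = 0.277 with the block), and was at 0.55 without HPLS S2. No gene of these groups passed the test between diets.

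**Figure D5:**
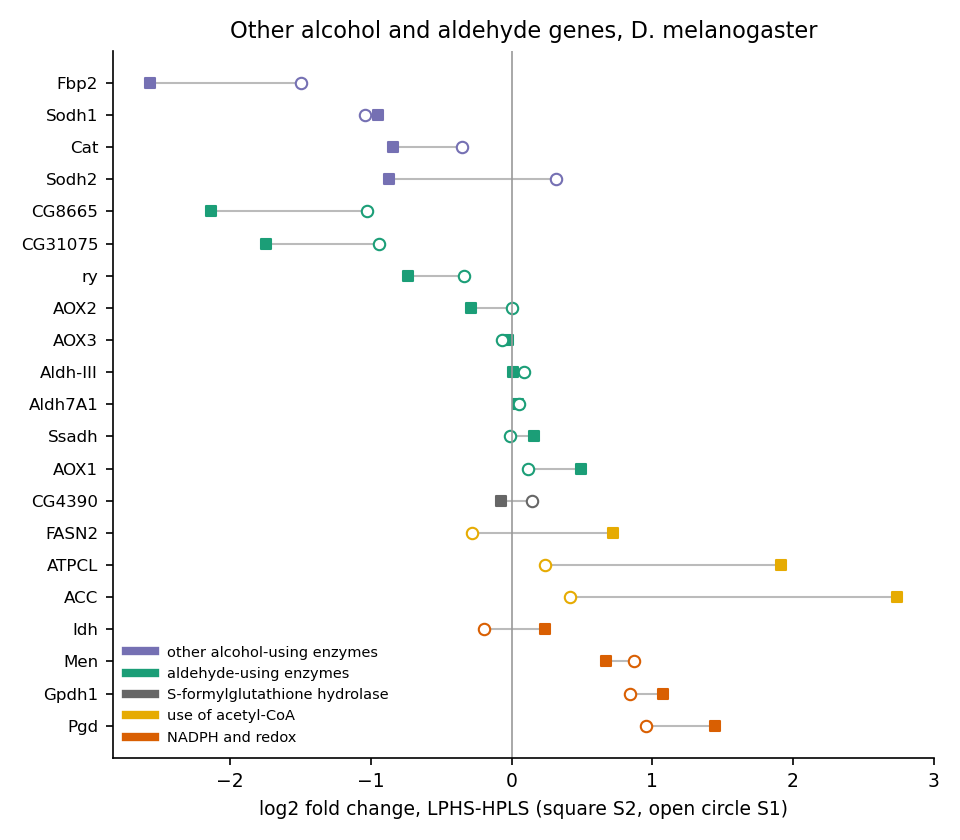
Log2 fold change in LPHS-HPLS of 21 of the 22 other alcohol and aldehyde genes of *D. melanogaster*, within S2 (filled squares) and within S1 (open circles), coloured by group. The 4 genes listed as other alcohol-using enzymes have a median of -0.80 and the 3 genes of acetyl-CoA use a median of 1.07 (-0.59 and 0.32 without HPLS S2). None of the 22 was called.

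Between the library numbers 7 of the 22 were called by limma, against 15.8% of all genes. *Fbp2* (1.91, adjusted p = 0.0266), *CG8665* (1.34, 0.0182) and the aldehyde oxidase *AOX3* (0.56, 0.0480) rose in S2. *Ssadh*, succinic semialdehyde dehydrogenase (-0.54, 0.0359), *Pgd* (-1.19, 0.0139) and the glycerol-3-phosphate dehydrogenase *Gpdh1* (-1.09, 0.0239) are 3 of the 4 that fell. Without HPLS S2, 2 were called higher and 4 lower, against 6.86% of all genes. *Fbp2* (1.87), *CG8665* (1.082), *Pgd* (-1.15) and *Gpdh1* (-1.16) kept their call, *Sodh2* (-0.98, adjusted p = 0.0219) and *FASN2* (-1.15, 0.0401) gained one, and *AOX3* (0.49, 0.262) and *Ssadh* (-0.54, 0.206) lost theirs. The glue markers named above differed between the same libraries, and their part was not tested.

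The genes whose profile was most like that of *Adh* and *Adh2* were ranked by Pearson's r of log2 normalized counts over the 6 libraries of a species, as a description. For *Adh* of *D. melanogaster* these were, of 8603 genes, the cytochrome P450 gene *Cyp6a17* (0.998), *Edem1* (0.996), which acts in the removal of misfolded proteins, asRNA:CR43872 (0.994), *CG5885* (0.994) and *CG43179* (0.992). *Adhr* ranked 7 (0.991) and *Aldh* 1283 (0.770), while r was -0.784 for *Fdh* and -0.183 for *AcCoAS*. For *Adh2* of *D. mojavensis* the first of 6227 genes were FBgn0141262 (0.998) and FBgn0142330 (0.997), for which no name is paired in the sources used here. *Adh1* ranked 835 (0.763). The libraries of a species share diet and library number, so a high r can come from either.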

How the data were processed

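Whole-larva RNA of 3 species was sequenced, and the 12 libraries of 2 species were used. The authors mapped read pairs with TopHat2 and Bowtie2, ran Cuffdiff and deposited 1 signal value per gene and library. Cufflinks was applied to predict transcripts of *D. arizonae*, which was not used here. Versions of these tools are not given in the sources used here. The deposited values are fragments multiplied by 1 step per library. The step was found between 0.5 and 1.5, with a tolerance of 0.01 steps. It gave whole fragments for 100% of values in *D. mojavensis* and 96.5 to 97.1% in *D. melanogaster*. Depth sets the precision of genes with few fragments. The members had at least 716 fragments in each library.

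Values were scaled by TMM (edgeR 4.0.16), kept by filterByExpr (minimum count 10) and tested as log2(value + 1) with limma 3.58.1 and a variance trend in R 4.3.3, which understates changes of low genes. The edgeR quasi-likelihood test and DESeq2 1.42.0 on fragments were alternatives, with rounded fragments in *D. melanogaster*. A gene was called at an adjusted p (Benjamini-Hochberg over all genes tested) up to 0.05. The genes tested were 9724 in *D. mojavensis* and 12324 in *D. melanogaster*. The model held diet, or diet and the library number as a block for S2-S1 and the paired fits. Libraries of the same number deviated together (correlations over genes of at least 0.518 for each of 3 pairs of diets in *D. mojavensis*, and 0.548 in *D. melanogaster*), so the numbers pair the libraries. The tests were checked on simulated data. The ratio was tested by exact permutation with scipy 1.17.1 in Python 3.11.15. Figures were drawn with matplotlib 3.10.9.

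Members and lists were chosen with earlier results of these data known. Named were the 7 members, listed genes that passed a test, the most abundant examples of each group and others singled out after their values were seen, and the 5 genes most like *Adh2* and *Adh* (mean normalized count of at least 100), of which 2 are printed for *Adh2*. Symbols were matched for 16939 of 17239 *D. melanogaster* genes. *FASN1* and *FASN3* were not matched. For 1 listed gene the values are not reported here, though its group counts include it.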

Additional observations from a re-analysis of the deposited data

How the results depend on the processing

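Other scalings, pseudocounts, filters and tools kept most results. Of the single genes' values, 193 kept direction and call, 14 gained a call and 4 turned direction. The 4 were *Adhr* of *D. melanogaster*, at 0.055 by edgeR and 0.058 by DESeq2 in LPHS-HPLS, and 0.055 and 0.058 in the trend, all without a call. In *D. mojavensis*, pairing by library number as a replicate block called 2 paralogs in LPHS-HPLS and 2 in the trend, beside 544 and 898 of 9724 genes. Without the block limma called 0 in each, beside 2 and 13 genes. The edgeR test with the block called 2 and 2, beside 549 and 877 of 9775 genes. DESeq2 called 2 and 2, beside 197 and 318 of 9775 genes. For the ratio the block gave 0.77 again, and it changed no call of a *D. melanogaster* member. The values as deposited called 5 members in S2-S1 of *D. melanogaster*, beside 6851 of 12324 genes. The main fit called 3, beside 1948 of 12324 genes. The values as deposited shift the median of all genes by 0.52 (-0.26 in *D. mojavensis*).

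With 1 library left out at a time, a fit in which the lone library is assumed to vary like the others, the S2-S1 count ran from 0 to 2 in *D. mojavensis* and from 2 to 3 in *D. melanogaster*. The S2-S1 fits called from 425 of 9920 to 2263 of 10012 genes in *D. mojavensis*. In *D. melanogaster* they called from 601 of 12692 to 3745 of 12417 genes. The ratio ran from -0.057 to 1.60 in LPHS-HPLS and from -0.056 to 1.36 in the trend. In *D. melanogaster*, LPHS-HPLS ran from -0.95 to 0.62 for *Adh*, -0.92 to 0.74 for *Adhr* and -0.22 to 0.30 for *Fdh*. The trend ran from -0.85 to 0.51, -0.79 to 0.63 and -0.15 to 0.29 in the same order, and S2-S1 of *AcCoAS* from -0.066 to 0.33. The cause of these turns was not tested. The members had at least 716 fragments in each library (*Adhr*), and how far depth or the number of libraries limits each was not compared.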
